A study of Mus musculus with 6 samples.

Results

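The Schlafen family was read in regulatory T (Treg) cells with and without miR-142, a microRNA of blood cells. Its 7 members, Slfn1, Slfn2, Slfn3, Slfn4, Slfn5, Slfn8 and Slfn9, were taken by gene symbol from the 24421 genes of the count matrix, and all 7 were found. Of these, 6 passed the filter on low values and Slfn4 did not. The libraries were RNA-seq of CD4+YFP+ cells sorted from the spleens of C57BL/6 female mice aged 8 to 11 weeks, with 3 biological replicates per genotype. WT mice were Foxp3Cre and KO mice were Foxp3Cre miR-142fl/fl, so both groups carried the Cre-YFP fusion driven by the endogenous Foxp3 promoter. The floxed miR-142 allele was named for KO mice only. The study reports that KO mice develop a fatal systemic autoimmune disease. It gives as a caveat that inflammation might itself change gene expression in Treg cells. The part of disease in the values below was not tested.

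Schlafen proteins are a family of vertebrate proteins with a shared amino-terminal domain that can bind and, in some members, cleave RNA, tRNA in particular. The mouse genes fall into short forms (Slfn1 and Slfn2), intermediate forms (Slfn3 and Slfn4) and long forms with a helicase-like domain (Slfn5, Slfn8 and Slfn9). The family takes its name from the German word for sleep. Slfn1 can halt T cell growth when overexpressed, Slfn2 is needed for T cells to stay quiescent, and many members are induced by interferons.

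All 7 members lie side by side on chromosome 11, from 82951349 to 83215154 in GRCm38, a span of 264 kb. The cluster ends 4.54 Mb before the targeted Mir142 gene on the same chromosome. Slfn8 and Slfn9 lie on the minus strand and the other 5 on the plus strand. The promoter windows of the RefSeq models (GRCm38.p6, 250 bases before to 50 after the start) were searched on both strands, and all 7 members had at least 1 window. The core of the interferon-stimulated response element, a pair of GAAA runs spaced by any 2 bases, was present in the windows of the 3 long members and in 3.44% of all 32851 windows. The windows below are shown for that core, in capitals, on the strand of each gene.
Slfn5, chr11:82951940-82951963, plus strand: tcaaagtGAAAAAGAAAaaaaaaa
Slfn9, chr11:82991859-82991882, minus strand: cgagcagTTTCGTTTTCccaaaaa
Slfn8, chr11:83020842-83020865, minus strand: tgagcagTTTCGTTTTCcccaaaa
The first capital lay at position -155 from the RefSeq start in Slfn5, at -45 in Slfn9 and at -48 in Slfn8, or at -136 from a further Slfn8 start. In the annotation that gave the gene positions, Slfn5 starts at 82951349, so its element lies inside that gene model. The Slfn8 and Slfn9 elements read on the opposite strand of their genes. None of the 4 short and intermediate members held these letters in its window. They shared another run, ACTTCCTGG, which resembles the sites of ETS factors and which 0.843% of all windows hold. It was searched for only after the sequences had been read, so its presence in these genes is a description of how it was chosen.
Slfn2, chr11:83065050-83065072, plus strand: ggctttcACTTCCTGGagggtga
Slfn1, chr11:83116739-83116761, plus strand: gtctcacACTTCCTGGagtgaca
Slfn4, chr11:83175106-83175128, plus strand: cggttatACTTCCTGGagtgacg
Slfn3, chr11:83191281-83191303, plus strand: tgacagaACTTCCTGGgggaggg
The capitals began at position -55 in Slfn2, -74 in Slfn1, -73 in Slfn4 and -42 in Slfn3. The core of the gamma-activated site, TTCNNNGAA, was in 8.30% of all windows and in none of the members' windows. A match is a run of letters in these windows and was not tested as a binding site.

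The mature strands of the deleted microRNA are shown with the seed, bases 2 to 8, in capitals, because the 3′ untranslated regions (UTRs) of the members were searched for its complement.
miR-142a-3p: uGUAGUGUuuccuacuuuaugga
miR-142a-5p: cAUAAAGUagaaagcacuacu
The longest annotated 3′ UTR of each member was between 53 bases (Slfn3) and 3136 bases (Slfn5) long. The 7-base sites ACACTAC and CACTACA of the miR-142-3p seed, AACACTA and ACACTAA of the same strand read 1 base further, and ACTTTAT and CTTTATA of miR-142-5p were absent from all 7. Among the 10793 tested genes with a 3′ UTR, 13.5%, 16.2% and 24.0% held a site of these 3 kinds, in the same order.

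The libraries held between 13883069 and 24042994 counts, and a count of 3 corresponded to between 0.125 and 0.216 CPM (counts scaled to the total of the library). Genes above 1 CPM in at least 3 libraries, 11658 in all, were tested after TMM scaling with the quasi-likelihood F test of edgeR (QLF), with Benjamini-Hochberg adjustment (FDR). Mir142 had 0 counts in every library. Mir142b, annotated on the opposite strand over Mir142, measured 9.49, 4.20 and 5.91 CPM in the WT replicates and 0.376, 0.360 and 0.337 CPM in the KO replicates. The label of the KO libraries thus matched the targeted locus in all 3. The 7 markers of Treg cells (Cd3e, Cd4, Foxp3, Il2ra, Ctla4, Ikzf2 and Tnfrsf18) were above 1 CPM in every library. KO replicate 1 stood apart: all 12 monocyte and macrophage markers, all 9 B cell markers and 11 of 12 neutrophil markers were highest there. The neutrophil list summed to 942 CPM in that library, to between 4.44 and 6.20 CPM in WT and to at most 48.4 CPM in the other KO libraries. The corresponding sums of the monocyte and macrophage list were 3051, 247 to 273 and at most 367 CPM, and those of the B cell list 310 (309.7), 31.2 to 43.8 and at most 12.9 CPM. Markers of CD8 T and NK cells came to 89.1 CPM in KO replicate 1, to between 20.8 and 25.8 CPM in WT and to 46.8 and 54.7 CPM in the other KO libraries. Dendritic cell markers came to 233 CPM in KO replicate 1 and to at most 76.4 CPM in any other library. Erythroid markers came to 12.96 CPM in it and to at most 2.81 CPM in the others, and 4 of the 7 (the globins) were at 0 in all libraries. S100a8, a defining neutrophil gene, was at 0 in all WT libraries and in KO replicate 2, at 0.877 CPM in KO replicate 3 and at 171 CPM in KO replicate 1. Values without KO replicate 1 are therefore given beside the fits, shares and lists, and values per library follow the order of replicates 1, 2 and 3.

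Of the 6 tested members, 3 (Slfn5, Slfn1 and Slfn8) fell in KO Treg cells with an FDR under 0.05, and none was higher. Among all tested genes, 7.27% were called lower and 18.8% were called in either direction. The fitted log2 fold change, KO over WT, was below 0 for all 6, with a median of -0.38 against 0.02 over all tested genes. The summed level of the 7 members was 1396, 1236 and 1131 CPM in WT replicates 1, 2 and 3 and 934, 889 and 817 CPM in KO replicates 1, 2 and 3. The groups did not overlap in this sum (exact two-sided permutation test, p = 0.1, the smallest p that 3 against 3 libraries allow). With Slfn4 left out the sums were 1395, 1235 and 1130 CPM in WT and 897, 888 and 816 CPM in KO, again apart. In bulk samples, fewer cells that express a gene and less RNA of it per cell cannot be told apart. CPM values are scaled to total counts, while the fold changes carry TMM factors, which were higher in WT (1.02 to 1.05) than in KO (0.953 to 0.987), so each fitted decrease is smaller than the ratio of the CPM means.

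**Figure D1:**
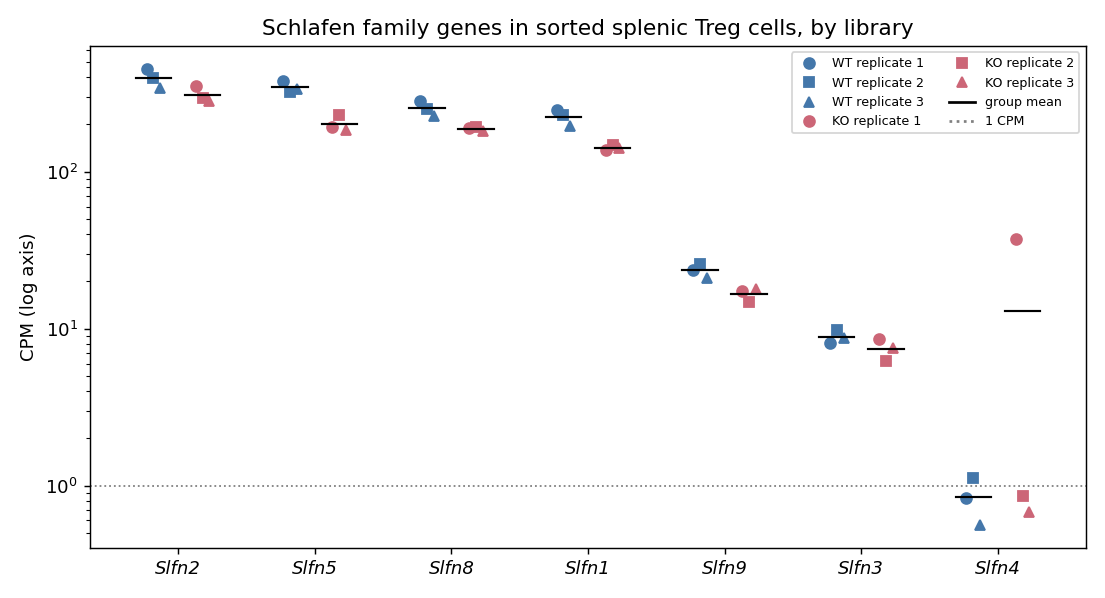
CPM of each member on a log axis, with a point per library (blue for WT, red for KO, and a symbol per replicate number), black bars for group means and a dotted line at 1 CPM. The KO points lie below the WT points for Slfn1, Slfn5, Slfn8 and Slfn9, the groups overlap for Slfn2 and Slfn3, and Slfn4 stands at 37.5 CPM in KO replicate 1 alone.

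Among the 6 tested members, Slfn5 had the largest fitted change. This long member has been studied as a nuclear protein that can act on interferon-driven transcription. It measured 379.6, 321 and 338 CPM in the WT replicates and 192, 231 and 184 CPM in the KO replicates. Every KO library lay below every WT library, as it did for 25.9% of all tested genes, and 42.6% had groups apart when both directions are counted. Mean levels were 346 ± 30.3 CPM for WT and 203 ± 24.9 CPM for KO (SD, n = 3 each). The log2 fold change was -0.69 (SE 0.12, FDR = 0.0102), a level 37.8% lower. Without KO replicate 1 it was -0.66 (FDR = 0.0142), and Slfn5 stayed called in each of the 6 fits with a library removed. The antisense gene Slfn5os overlaps Slfn5. It had 1 count over all libraries, and because counting ignored strand the reads of the pair cannot be separated.

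The short member Slfn1, able to halt T cell growth when overexpressed, came next. It measured 247, 230.05 and 195 CPM in the WT replicates and 138, 149 and 141 CPM in the KO replicates. The groups did not overlap, and the KO libraries lay closer together than the WT libraries. The means were 224 ± 26.3 CPM and 143 ± 5.41 CPM (SD, n = 3 each). The fitted difference was -0.57 on the log2 scale (SE 0.10, FDR = 0.0111). Without KO replicate 1 the value was -0.56 (FDR = 0.0175). Of the 6 fits with a library removed, 1 lost the call, that without WT replicate 2 (log2 fold change -0.54, FDR = 0.0611).

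Slfn8, the long member beside Slfn9, had 284, 251 and 226 CPM in the WT replicates and 189.8, 191 and 181 CPM in the KO replicates. The KO libraries again lay below all WT libraries. Mean levels were 253 ± 29.2 CPM for WT and 187 ± 5.64 CPM for KO (SD, n = 3 each). The log2 fold change of -0.35 (SE 0.10, FDR = 0.047) was just past the threshold. It was -0.38 without KO replicate 1 (FDR = 0.0615). The call was lost whichever library was left out, with an FDR between 0.0538 and 0.149, while the direction stayed downward. When a gene had to pass the QLF test, the likelihood ratio test and the exact test of edgeR, the largest FDR of the 3 was 0.0547. The study required an FDR under 0.05 in these 3 tests for the genes of its pathway analysis. By that rule 2 members were called, both lower.

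Its neighbour Slfn9, another long member, had far fewer counts. It measured 23.6, 25.9 and 21.1 CPM in the WT replicates and 17.4, 14.8 and 17.9 CPM in the KO replicates. The groups did not overlap, with means of 23.5 ± 2.41 CPM for WT and 16.7 ± 1.67 CPM for KO (SD, n = 3 each). The log2 fold change was -0.41 (SE 0.13, FDR = 0.0687), short of the threshold, and without KO replicate 1 it was -0.46 (FDR = 0.0734). With scaling by library size alone, or with DESeq2, it passed (FDR = 0.0478 and 0.0471).

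Slfn2, needed for T cell quiescence and a guard of tRNA against cleavage, was the most abundant member. It measured 453, 398 and 341 CPM in the WT replicates and 351, 296 and 284 CPM in the KO replicates. KO replicate 1 lay above WT replicate 3, so the groups overlapped, while KO replicates 2 and 3 lay below all WT libraries. Mean levels were 397 ± 55.9 and 310.3 ± 35.7 CPM (SD, n = 3 each). The log2 fold change was -0.27 (95% CI -0.57 to 0.03, FDR = 0.185), and without KO replicate 1 it was -0.38 (FDR = 0.0774). The marker lists of other cells were highest in KO replicate 1, and their part in the Slfn2 value was not tested.

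Slfn3, an intermediate member, had 8.07, 9.86 and 8.77 CPM in the WT replicates and 8.55, 6.27 and 7.49 CPM in the KO replicates. Its groups overlapped through KO replicate 1, with means of 8.90 ± 0.901 CPM for WT and 7.43 ± 1.14 CPM for KO (SD, n = 3 each). The log2 fold change was -0.18 (95% CI -0.62 to 0.26, FDR = 0.546), an interval that holds both a rise and a fall. It was -0.31 without KO replicate 1 (FDR = 0.3198).

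**Figure D2:**
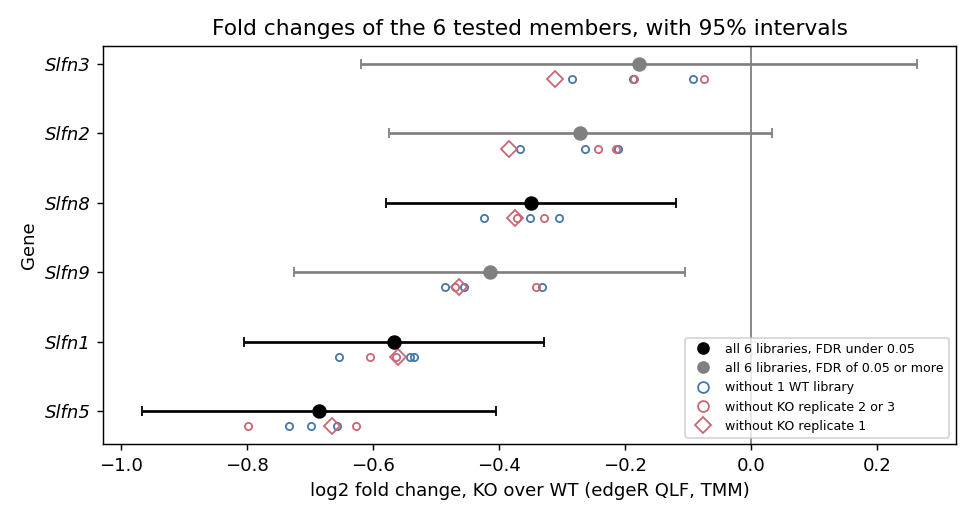
Log2 fold changes (x axis, KO over WT) of the 6 tested members with 95% intervals from the QLF test (black for an FDR under 0.05, grey otherwise), and open symbols below each for the fits that left out 1 library. All open symbols lie below 0, from -0.80 for Slfn5 without KO replicate 2 to -0.07 for Slfn3.

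Slfn4 followed another course. This intermediate member is known from macrophages and other myeloid cells, where interferon induces it. It had 13, 27 and 10 counts in WT replicates 1 to 3 and 697, 12 and 10 counts in KO replicates 1 to 3, or 0.839, 1.12, 0.562, 37.5, 0.864 and 0.675 CPM. Only KO replicate 1 was high, at 48.7 times the mean of the other KO libraries. The WT mean was 0.841 ± 0.28 CPM and the mean of KO replicates 2 and 3 was 0.769 CPM. Slfn4 did not reach 1 CPM in 3 libraries and was not tested. With no such filter its log2 fold change was 3.98 (FDR = 0.13). The library that held it was the one in which the neutrophil and the monocyte and macrophage lists were highest. Lyz2, a myeloid lysozyme, had 359 CPM there and at most 2.16 CPM elsewhere, and Csf1r, the receptor of macrophage colony-stimulating factor, had 619 CPM there and at most 12.03 CPM elsewhere. The part of other cells in the Slfn4 count was not tested.

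Per kilobase of annotated exon, Slfn2 had the highest level in WT Treg cells, at 239 ± 33.6 CPM per kb, followed by Slfn1 at 120.2 ± 14.1, Slfn8 at 61.95 ± 7.13 and Slfn5 at 54.7 ± 4.79 CPM per kb (SD, n = 3). The ranges of Slfn8 and Slfn5 over the WT libraries overlapped, though Slfn8 lay above Slfn5 within each of them, a difference that was not tested. Slfn9, Slfn3 and Slfn4 were far below, at 3.94 ± 0.404, 2.61 ± 0.264 and 0.212 ± 0.0707 CPM per kb. In KO Treg cells the first 4 kept this order, at 186 ± 21.4, 76.5 ± 2.90, 45.8 ± 1.38 and 32.02 ± 3.94 CPM per kb. As a share of the summed level per kilobase, Slfn2 made up 50.4%, 49.6% and 48.3% in WT and 56.0%, 51.5% and 52.5% in KO replicates 1 to 3. The share of Slfn1 went from 24.9% ± 0.598 in WT to 22.01% ± 2.04 in KO (SD, n = 3 per group), and that of Slfn5 from 11.4% ± 1.06 to 9.20% ± 1.27. Slfn8 took 12.8% ± 0.14 and 13.2% ± 0.721. The groups did not overlap for the shares of Slfn1 and Slfn2 (exact two-sided permutation test, p = 0.1 for each and 0.35 after adjustment over the 7 members), and with 3 against 3 libraries p cannot go below 0.1, so no share could pass. The difference of KO minus WT went, when KO replicate 1 was left out, from -2.91 to -1.74 percentage points for Slfn1, from 3.91 to 2.58 for Slfn2 and from 0.309 to 0.725 for Slfn8.

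**Figure D3:**
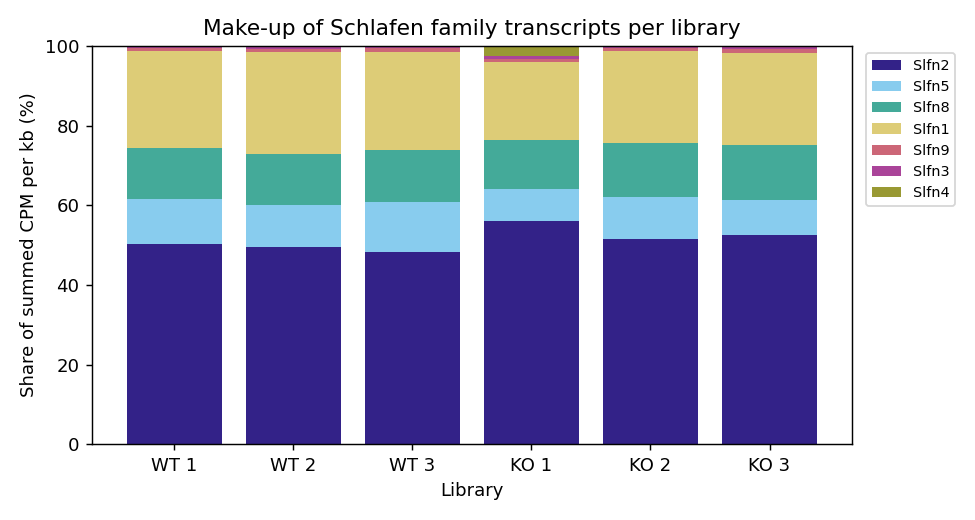
Share of each member in the summed CPM per kb of the 7 members (y axis, percent), with a bar per library. Slfn2 makes up 48.3% to 56.0% of every bar, and Slfn4 is visible only in KO replicate 1, at 2.51%.

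Paralogs of the family can share reads. Of the 51-base stretches in the annotated transcripts of each member, the length of the study's reads, 0.551% of Slfn1 and 4.15% of Slfn2 also occurred in a transcript of another gene. The share was 10.9% for Slfn4, 10.9% for Slfn5, 11.5% for Slfn9, 14.1% for Slfn8 and 15.4% for Slfn3. Slfn5 shared most of its stretches, 465 of 691, with the antisense gene Slfn5os and not with a paralog. Slfn8 and Slfn9 shared most of theirs with the pseudogene Slfn10-ps, and the gene that Slfn3 and Slfn4 shared most with was the other of the pair. How the counting treated such reads is not given in the sources used here. Slfn10-ps, which lies between Slfn8 and Slfn2, had 65.9, 49.95 and 54.3 CPM in the WT replicates and 43.5, 40.99 and 41.2 CPM in the KO replicates. Its groups did not overlap, and its log2 fold change was -0.35 (SE 0.11, FDR = 0.0697). The values of Slfn8, Slfn9 and Slfn10-ps are therefore less certain as separate genes than those of Slfn1 and Slfn2. Slfn14, beyond Slfn3 on chromosome 11, had at most 5 counts, and Slfnl1, on chromosome 4, had at most 5 counts in any library.

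The share of genes called around the cluster was near that of all genes. Of 23 other tested genes that start within 1 Mb of the outermost members, Slfn10-ps included, 3 were called higher and 2 lower in KO, 21.7% of the 23 beside 18.8% of all tested genes. Their median log2 fold change was 0.10, and it was below 0 for 11 of them. The 3 called higher were the chemokine genes Ccl5, Ccl3 and Ccl4, with log2 fold changes of 2.53, 6.29 and 4.86 (FDR = 0.0338, 0.0212 and 0.0323 in the QLF test). In WT, Ccl3 had at most 0.281 CPM and Ccl4 at most 0.394 CPM. Both thus entered the tested genes, and the 21.7%, only by passing the filter in the KO libraries. Each was highest in KO replicate 1, where Ccl5 had 188 CPM against 32.1 and 46.3 CPM in the other KO libraries. Taf15, for an RNA-binding protein, and Heatr6 were called lower, at -0.37 (FDR = 0.0448) and -0.42 (FDR = 0.0206). Nle1, the tested gene nearest to the cluster on the Slfn5 side, had a log2 fold change of 0.19 (FDR = 0.217). AI662270, nearest on the Slfn3 side, had 0.29 (FDR = 0.159). Without KO replicate 1, 20 of these genes were tested and 2 called, 1 higher and 1 lower. Ccl3 and Ccl4 fell under the filter in any fit without a KO library, so their calls there could not be repeated. In KO replicates 2 and 3 Ccl3 had 2.23 and 2.56 CPM and Ccl4 had 1.30 and 2.70 CPM, above every WT library. Every fit with a library removed called fewer than 5. The number was 3 without KO replicate 2, 2 without KO replicate 3, 1 without WT replicate 1 or WT replicate 3, and 0 without WT replicate 2. Ccl5, Ccl3 and Ccl4 were above 1 CPM in every KO library and so passed the filter in the fits without a WT library. These fits called 0 genes higher, so all 3 chemokine genes lost their calls there. With robust estimation on all libraries, 1 neighbour was called higher and 2 lower.

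**Figure D4:**
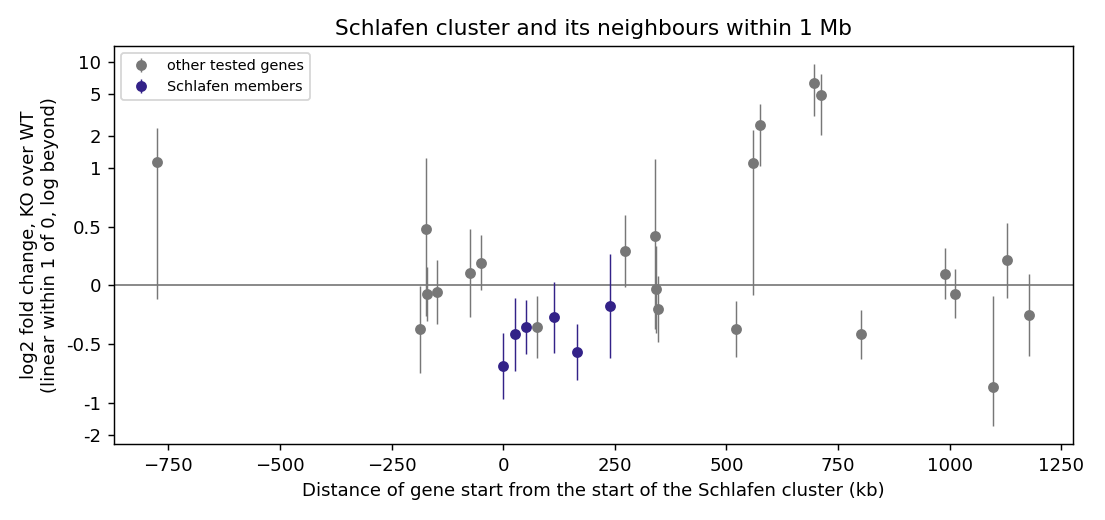
Log2 fold change with its 95% interval (y axis, linear within 1 of 0 and logarithmic beyond) against distance of the gene start from the start of the cluster in kb, for the 6 tested members (blue) and the 23 other tested genes within 1 Mb (grey). The members lie between -0.69 and -0.18, and the 3 chemokine genes lie highest, at 2.53 to 6.29.

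Because several Schlafen genes respond to interferons, 36 interferon-stimulated genes were read in the same fit. All 36 were tested, and 4 rose and 3 fell in KO Treg cells (19.4% called, close to the 18.8% of all tested genes), with a median log2 fold change of 0.04. Among those higher was Isg20, for an exonuclease, with 31.7 ± 2.88 CPM for WT and 59.2 ± 9.21 CPM for KO (SD, n = 3 each; log2 fold change 0.98, FDR = 0.00379 in the QLF test). Lower were Samd9l, an antiviral factor that restrains cell growth and translation, with 491 ± 43.5 CPM for WT and 243 ± 30.9 CPM for KO (log2 fold change -0.93, FDR = 0.00379), and Trim30a, with -0.58 (FDR = 0.0358). Without KO replicate 1 the numbers were 3 higher and 9 lower, beside 1107 higher and 868 lower among the 11429 genes tested in that fit, the median was -0.18, and 29 of the 36 had a log2 fold change below 0. Oas2, Rsad2, Oas1a, Ifit1, Rtp4 and Herc6 were called lower in that fit and were not called with all libraries. Their log2 fold changes there were -1.33, -1.34, -1.12, -0.68, -0.54 and -0.44. The number called fell to 2 without WT replicate 2, without WT replicate 3 or without KO replicate 3, and to 3 without WT replicate 1.

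A list of 24 genes linked to the quiescence or naive state of T cells was read in the same way. Of the 22 tested, 1 was higher and 1 lower (9.09% called), below the 18.8% of all tested genes. The median log2 fold change was -0.06, and 15 of the 22 were below 0. Values ran from -0.84, for Tcf7 (FDR = 0.0686 in the QLF test, not called), to 0.72. Ndrg1, a gene of T cell anergy, measured 22.4 ± 3.52 CPM for WT and 34.8 ± 2.65 CPM for KO (log2 fold change 0.72, FDR = 0.0134 in the QLF test). Runx1, a transcription factor of T cells, had 164 ± 14.0 and 118 ± 8.40 CPM (log2 fold change -0.39, FDR = 0.0457). With DESeq2, 2 were higher and 2 lower. Without KO replicate 1 the number was 3, all higher, so the lower call of Runx1 was lost. It was 0 without WT replicate 2, 1 without WT replicate 3 or KO replicate 3, and 7 (1 higher, 6 lower) without KO replicate 2.

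**Figure D5:**
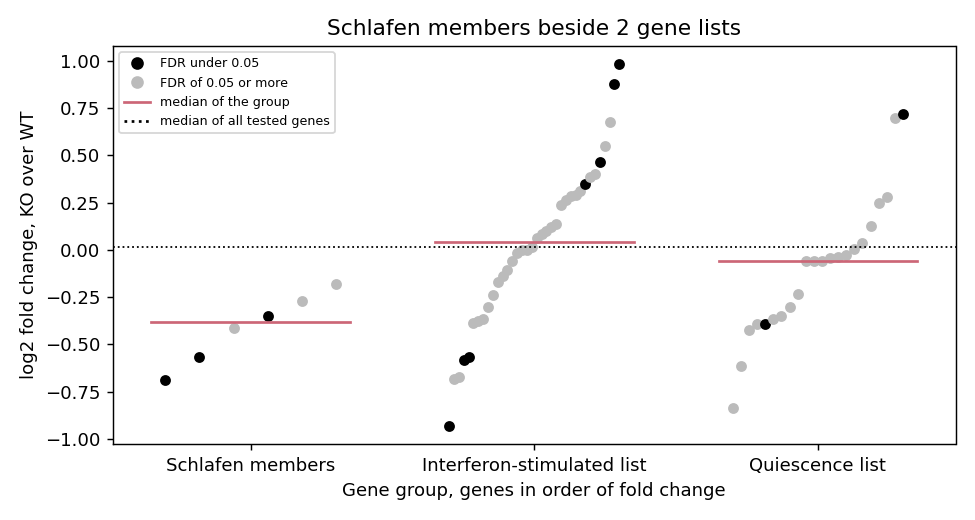
Log2 fold changes (y axis, KO over WT) of the tested Schlafen members, interferon-stimulated list and quiescence list, with a point per gene (black for an FDR under 0.05), red lines for group medians and a dotted line for the median of all tested genes. The median of the members, -0.38, lies below those of the lists, 0.04 and -0.06.

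Correlations were taken on log2 CPM with TMM scaling. Among tested genes outside the family, Clp1, Fiz1 and Tmcc1 followed Slfn5 most closely over the 6 libraries. Their Pearson's r was 0.999, 0.996 and 0.994. Of these, Clp1 and Tmcc1 were called lower in KO, with log2 fold changes of -0.42 and -0.36 (FDR = 0.039 and 0.0379 in the QLF test). The genes most like Slfn2 were Creb3l2, Gm14326 and Smyd5, each with r of 0.984, and none of these was called. The 6 points share the 2 genotypes. An r above 0.95 was found for 174 tested genes with Slfn5 and for 13 with Slfn2.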

How the data were processed

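Single-end reads of 51 bases were mapped by the authors to mm10 with HISAT and counted per gene with featureCounts, ignoring strand. The deposited matrix holds raw counts, with no normalization, and all 6 columns were used. Versions and the gene annotation are not given in the sources used here. Members were matched by symbol. GENCODE vM21 (GRCm38, the build of mm10) gave positions and exon lengths, matching 23334 genes by symbol and 655 by synonym. The test was the QLF test of edgeR 4.0.16 (R 4.3.3) after TMM scaling, on genes over 1 CPM in 3 or more libraries, with a threshold of FDR under 0.05. DESeq2 1.42.0 was an alternative. Standard errors are the log2 fold change over the square root of F. The permutation test of the summed level used log2 of CPM, and those of the shares used the percentages themselves. Steps were tested on simulated counts.

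The members and lists were chosen with earlier results of these data known. Named genes were the members, other Schlafen genes, Mir142 and Mir142b, up to 2 called genes per list and direction with the smallest p, called neighbours, and the 3 genes most correlated with the most abundant member and with the member of smallest p. A gene that this rule names is not reported here. Oas2, Rsad2, Oas1a, Ifit1, Rtp4, Herc6, Tcf7, Nle1, AI662270 and the ACTTCCTGG run were chosen after their values or letters were seen. So was leaving Slfn4 out of the summed level. Marker lists covered Treg, neutrophil, monocyte and macrophage, B, CD8 and NK, dendritic and erythroid cells.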

Additional observations from a re-analysis of the deposited data

How the results depend on the processing

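All fits kept the 6 members' log2 fold changes below 0. An FDR under 0.01 called 686 genes and 0 members, 0 quiescence, 2 interferon-stimulated and 0 neighbour genes, so Slfn1 (-0.57), Slfn5 (-0.69) and Slfn8 (-0.35) lost their calls. Slfn8 also lost its call with no filter (-0.37), under the 3 edgeR tests together (-0.35) and with a replicate block (-0.35). Slfn9 passed with library size alone (-0.49) and DESeq2 (-0.42). With library size as the only scaling, 1064 genes were called higher and 1201 lower, against 1350 and 847, and the median of all tested genes moved from 0.02 to -0.06. With no filter 1 quiescence gene was called, with DESeq2 4, and with robust estimation 3 neighbours. Same-numbered WT and KO libraries did not deviate together (r from -0.19 to 0.07, and 1 of 6 libraries correlated best with its own number). With 3 libraries per group these values cannot decide whether same-numbered libraries shared a preparation. The labels give only a replicate number, and the main fits were unpaired. The replicate block gave 1606 genes, 2 members, 4 interferon-stimulated genes and 3 neighbours. As shares of CPM not taken per length, the difference was -4.63 for Slfn5, 1.14 for Slfn8 and -1.60 for Slfn1, in percentage points.

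Leaving out each library in turn gave 691 to 2340 genes, 1 to 2 members, 0 to 7 quiescence, 2 to 12 interferon-stimulated and 0 to 3 neighbour genes. The log2 fold changes ranged from -0.65 to -0.54 for Slfn1, from -0.42 to -0.30 for Slfn8, from -0.80 to -0.63 for Slfn5, from -0.49 to -0.33 for Slfn9, from -0.38 to -0.21 for Slfn2 and from -0.31 to -0.07 for Slfn3. The causes were not tested, though fewer libraries are part of how these fits were built. Slfn1, Slfn2, Slfn5 and Slfn8 had at least 2062 counts in every library, while Slfn4 lay near the CPM filter outside KO replicate 1. Whether depth limited the fits, with 3 libraries per group, was not tested.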

Other observations

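Over the 6 libraries, the TMM-scaled log2 CPM of Slfn1 and Slfn8 had a Pearson's r of 0.974. The r was 0.942 for Slfn1 and Slfn5 and 0.921 for Slfn5 and Slfn8. Slfn3 was less like Slfn1, Slfn2, Slfn5 and Slfn8, with r between 0.241 and 0.457, while its r to Slfn9 was 0.737. The points share the 2 genotypes and the scaling of each library, and these values are a description with no test.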
